A study of Chlorocebus aethiops with 12 samples.

Results

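PCDHB7 to PCDHB16 are 10 genes of the protocadherin beta cluster, and the set was chosen by the low signal of PCDHB13 after dexamethasone. The question was whether that lower level extends to the other genes of the cluster. The members are all probes of the array that carry the record of 1 of the 10 genes, which gave 12 probes of the 41000 on the array and 10 of its 32379 records. PCDHB9 and PCDHB12 had a pair of probes each and the other 8 genes had 1 probe each. Because the contrast of dexamethasone with vehicle chose the set, the changes of the members in it are given as a description, with intervals and no p-value. Counts of members that passed a threshold in it are also given, and nothing is read from them.

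Protocadherins beta are single-pass membrane proteins of the cadherin family with an extracellular part built of cadherin repeats, and they mediate cell-cell recognition between matching proteins. Each is encoded by a single large exon with a promoter of its own. In neurons, where the family is best known, each cell transcribes a small choice of these promoters, and CTCF and cohesin take part in that choice. In the human cluster PCDHB12 and PCDHB14 are the genes next to PCDHB13, with PCDHB11 and PCDHB10 beyond PCDHB12.

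The RNA came from the African green monkey kidney line COS-1 after it had been transiently transfected with mouse CCRP carrying a V5 tag and human glucocorticoid receptor carrying a FLAG tag. Every group therefore carried a transfected receptor with a mutation at 1 tyrosine, Y30E (glutamate) or Y30F (phenylalanine), and no group carried an unmutated receptor or none. At 40 h after transfection a 6 h treatment began, with the synthetic glucocorticoid dexamethasone at 100 nM or with its vehicle, 0.1% DMSO. The 4 groups were Y30E-DEX, Y30E-DMSO, Y30F-DEX and Y30F-DMSO, each with 3 arrays, and no label says that they came from separate cultures. P-values and errors thus describe the spread between arrays, part or all of which may be technical. RNA was taken from whole cultures, so fewer cells with a transcript and less transcript per cell cannot be told apart. Human probes were hybridised with monkey RNA, so a probe's signal can be low through mismatch, and no level was set against that of another probe. Probe sequences were not examined, so whether a probe also took signal from another gene of the cluster was not tested.

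Only 4 of the 12 member probes (33.3%), those of PCDHB7, PCDHB8, PCDHB11 and PCDHB13, entered the test, which asked for a signal well above background on every array of 1 or more groups. Of all 41000 probes, 25570 did (62.4%). PCDHB8, PCDHB11 and PCDHB13 were well above background on 12 of 12 arrays and PCDHB7 on 11 of 12. Spot brightness, which sets the precision and does not compare transcript levels between probes, was set against the faintest signal well above background on the same array (17.5 to 26.0 signal units over the 12 arrays). At its highest, PCDHB13 reached 235 times that signal and PCDHB11 17.5 times, whereas PCDHB7 reached 4.35 times and PCDHB8 2.80 times. The scanner software's error for a single spot followed the brightness. It was 10.0% for PCDHB13, 10.1% to 10.2% for PCDHB11, 12.9% to 19.9% for PCDHB8 and 11.3% to 22.9% for PCDHB7. No member spot was saturated.

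**Figure D1:**
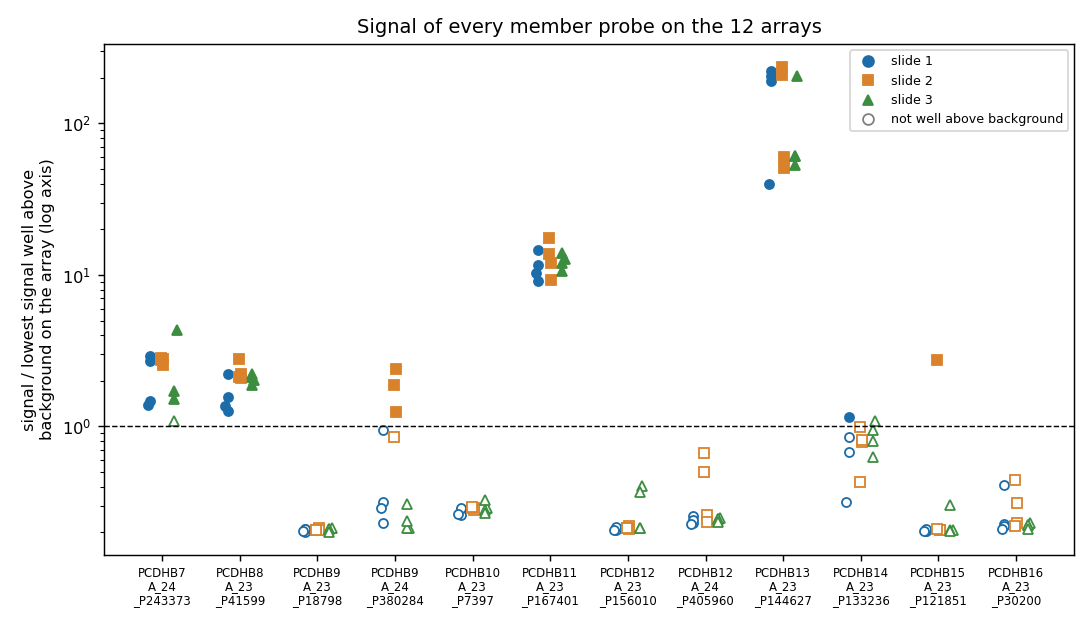
Signal of each of the 12 member probes on the 12 arrays (points, shaped and coloured by slide), divided by the lowest signal well above background on that array, on a log axis; open points were not well above background and the dashed line marks 1. PCDHB13, PCDHB11, PCDHB8 and PCDHB7 lie above the line on all arrays, PCDHB13 up to 235, while the probes of PCDHB10, PCDHB12 and PCDHB16 lie below it on all. A point above the line can still be open, as for PCDHB7 on Y30E-DEX replicate 3 and PCDHB14 on Y30E-DMSO replicate 3, each at 1.08.

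The genes on either side of PCDHB13 did not pass the filter on low signal. Both PCDHB12 probes were not well above background on any of the 12 arrays, with signals of 3.76 to 8.68 and 4.43 to 11.6. The brighter of these reached 0.664 of the lowest signal well above background on its array. PCDHB14 lay at the edge of detection, at 7.54 to 23.3 with a median of 16.4, and only Y30F-DMSO replicate 3 was well above background, at 21.9. For PCDHB14 the mean signal was 16.6 in Y30E-DEX and 16.5 in Y30E-DMSO, and 13.5 in Y30F-DEX and 18.6 in Y30F-DMSO, with overlapping arrays in both pairs. PCDHB10 (5.01 to 7.32), PCDHB16 (4.14 to 7.86) and 1 PCDHB9 probe (3.62 to 5.50) were not well above background on any array. The other PCDHB9 probe was well above background on 3 of 12 arrays, from 2 groups, and the PCDHB15 probe on 1 of 12. In a fit of all 41000 probes without the filter, none of these 8 probes passed in the comparisons of the receptor mutants (limma adjusted p = 0.436 or higher). The share of all probes that passed in that fit is not given here. The dexamethasone changes of the PCDHB12 probes in that fit were -0.75 ± 0.31 (A_24_P405960) and 0.060 ± 0.33 (A_23_P156010) in Y30E, and 0.068 ± 0.31 and 0.084 ± 0.33 in Y30F (log2, SE). PCDHB14 changed by 0.12 ± 0.39 in Y30E and -0.49 ± 0.39 in Y30F in it. Values of probes that are not well above background do not measure a level, so these changes show neither a fall of the neighbours nor its absence.

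PCDHB13 was measured by a single probe (A_23_P144627, record NM_018933), with the highest signal over background in the set. Its signal was 1299, 1220 and 1152 on the Y30E-DEX arrays, against 3942, 4110 and 4388 on the Y30E-DMSO arrays. With the Y30F receptor it was 960.1, 1263 and 1019 on the DEX arrays, against 4975, 4249 and 3905 on the DMSO arrays. All 6 DEX arrays lay below all 6 DMSO arrays, and the raw spot brightness before background subtraction showed the same split, with median pixel values of 1007 to 1394 under DEX and 4003 to 5145 under DMSO. After scaling, the highest Y30E-DEX array lay 1.61 (log2) below the lowest Y30E-DMSO array, and the highest Y30F-DEX array 1.40 below the lowest Y30F-DMSO array.

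The PCDHB13 level under dexamethasone was 29.1% of that under DMSO with Y30E and 25.5% with Y30F. The log2 changes were -1.78 ± 0.15 and -1.97 ± 0.15 (SE, n = 3 against 3), with 95% intervals of -2.11 to -1.45 and -2.30 to -1.64. In rank, this was the lowest of 25570 changes for the average over both receptors (-1.88), the 2nd lowest in Y30F and the 20th lowest in Y30E. Among the 23582 probes well above background on all 12 arrays, no other had a change as low in either receptor. Since this contrast chose the gene, these ranks describe the choice.

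**Figure D2:**
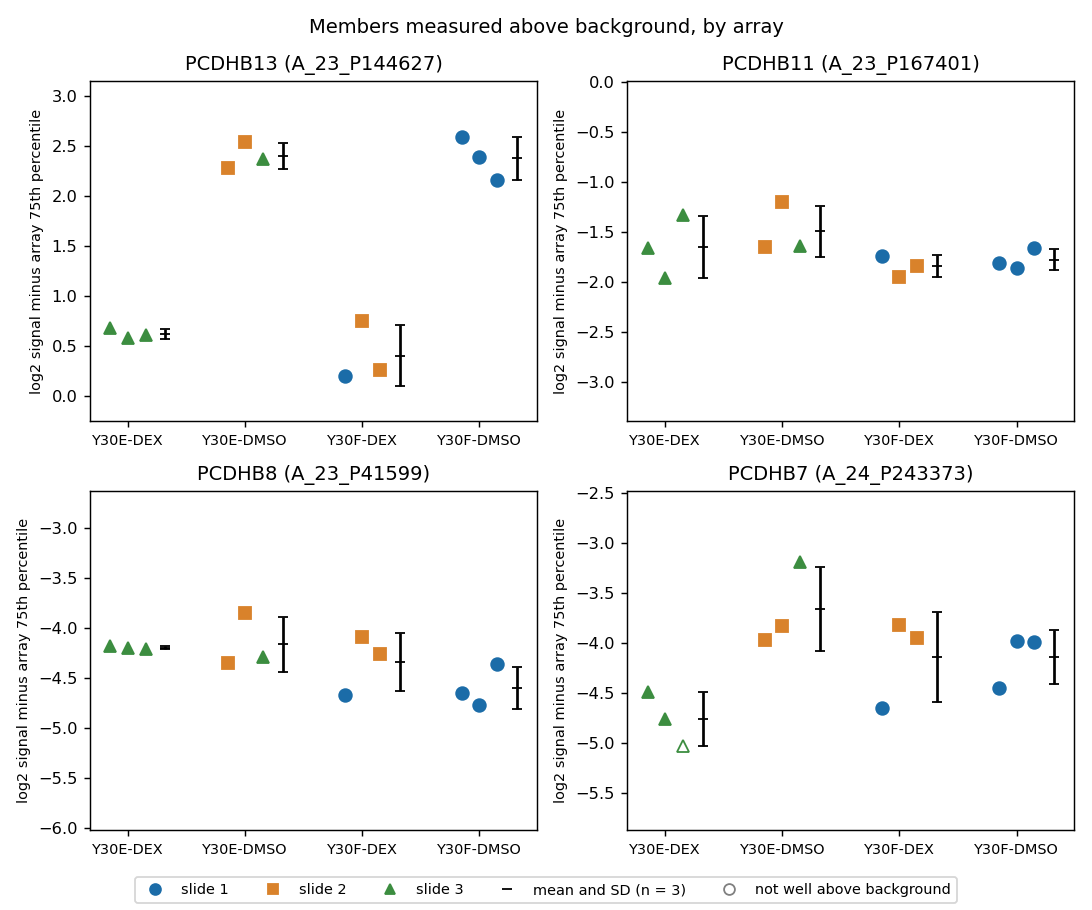
Normalised signal of the 4 measured members on each array (log2 signal minus the array's 75th percentile), by group; points are arrays, shaped and coloured by slide, bars are mean and SD over 3 arrays, open points were not well above background, and each panel spans the same log2 range. PCDHB13 separates DEX from DMSO arrays with both receptors, PCDHB11 and PCDHB8 overlap in both pairs, and PCDHB7 overlaps with Y30F and not with Y30E.

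PCDHB11 (A_23_P167401, NM_018931), the measured member nearest to PCDHB13, had nearly the same signal with and without hormone. It gave 257, 210.4 and 299 on the Y30E-DEX arrays, against 258, 307 and 272 on the Y30E-DMSO arrays. In Y30F it gave 251, 194 and 238 on the DEX arrays, against 236, 223 and 276 on the DMSO arrays. The groups overlapped in both pairs. The log2 changes were -0.16 ± 0.16 in Y30E and -0.064 ± 0.16 in Y30F (SE, n = 3 against 3), with 95% intervals of -0.51 to 0.20 and -0.42 to 0.29. A fall of more than 29.8% in Y30E, or 25.1% in Y30F, lay outside these intervals, and the falls of PCDHB13 were 70.9% and 74.5%. These intervals are from the fit without slide as a block. With slide as a block the PCDHB11 intervals were wider, -0.53 to 0.51 in Y30E and -0.48 to 0.56 in Y30F.

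PCDHB8 (A_23_P41599, NM_019120) lay closer to background and its groups also overlapped. Its signal was 44.9, 44.5 and 40.8 on the Y30E-DEX arrays, against 39.8, 48.9 and 43.3 on the Y30E-DMSO arrays. With Y30F it was 33.0, 43.8 and 44.4 on the DEX arrays, against 32.9, 29.7 and 42.5 on the DMSO arrays. The log2 changes were -0.035 ± 0.17 in Y30E (95% interval -0.41 to 0.34) and 0.26 ± 0.17 in Y30F (-0.12 to 0.63). The value in Y30F moved with slide. Within that group the slide 2 arrays were 0.49 (log2) higher than the slide 1 array, and with slide as a block the change was -0.070.

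PCDHB7 (A_24_P243373, NM_018940) was the other member whose DEX and DMSO arrays did not overlap, and this held with Y30E and not with Y30F. Its signal was 36.4, 30.3 and 23.2 on the Y30E-DEX arrays, against 51.7, 49.8 and 93.6 on the Y30E-DMSO arrays. The 3rd DEX array was not well above background. In Y30F it was 33.4, 53.2 and 55.4 on the DEX arrays, against 38.0, 51.8 and 55.3 on the DMSO arrays, with overlap. The log2 change was -1.10 ± 0.26 in Y30E (95% interval -1.68 to -0.51) and -0.00023 ± 0.26 in Y30F (-0.59 to 0.58). In Y30E the value rests partly on the highest array, Y30E-DMSO replicate 3, without which it was -0.86. That array is also the sole Y30E-DMSO array on slide 3, so the slide block gave -1.57 (95% interval -2.08 to -1.06). In Y30F the block gave -0.51 (-1.02 to -0.0049), an interval that does not include 0. There it rests on the single Y30F-DEX array of slide 1, at 33.4, which lay below all Y30F-DMSO arrays. For the average over both receptors the block gave -1.04 (-1.40 to -0.68). A fall of PCDHB7 confined to Y30E is thus not shown. With normexp background correction, whose offset of 50 shrinks the changes of faint probes, the change in Y30E was -0.47. In that setting PCDHB7 passed the limma threshold in Y30E, which it did not in the main fit. Nothing is read from this, because the same contrast chose the set. Among all 25570 tested probes, 157 had a change of -1 or lower in Y30E and 13 in Y30F. In Y30E, 117 of them were among the 1988 tested probes, PCDHB7 included, that were not well above background on every array, and 40 among the 23582 that were. A fall can itself take a probe below background. How many of all tested probes had DEX and DMSO arrays without overlap is not given here. Nothing is therefore read from overlap alone.

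**Figure D3:**
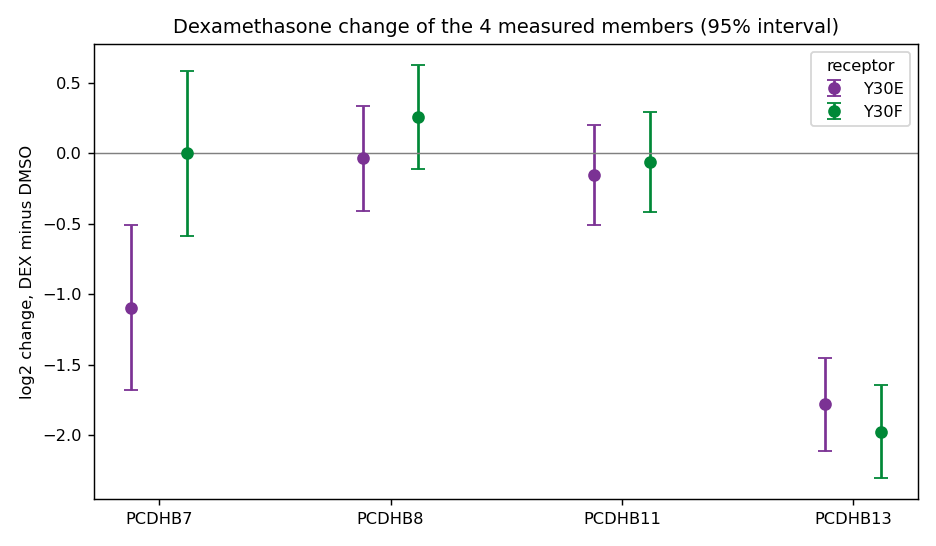
Log2 change with dexamethasone (DEX minus DMSO) of the 4 measured members with the Y30E and the Y30F receptor; points are limma estimates from 3 against 3 arrays and bars are 95% intervals. PCDHB13 lies at -1.78 and -1.97, the intervals of PCDHB8 and PCDHB11 include 0 with both receptors, and that of PCDHB7 includes 0 with Y30F and not with Y30E. Slide was not a block in this fit.

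At a threshold of 0.05 on the adjusted p of limma, taken over all 25570 probes, 1 of the 4 tested member probes passed in Y30E, where 1.98% of all probes tested passed. In Y30F 1 of 4 passed, where 1.65% of all did, and for the average over both receptors 1 of 4 passed, where 3.57% of all did. In each case the member was PCDHB13, and nothing is read from these counts because the same contrast chose the set.

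**Figure D4:**
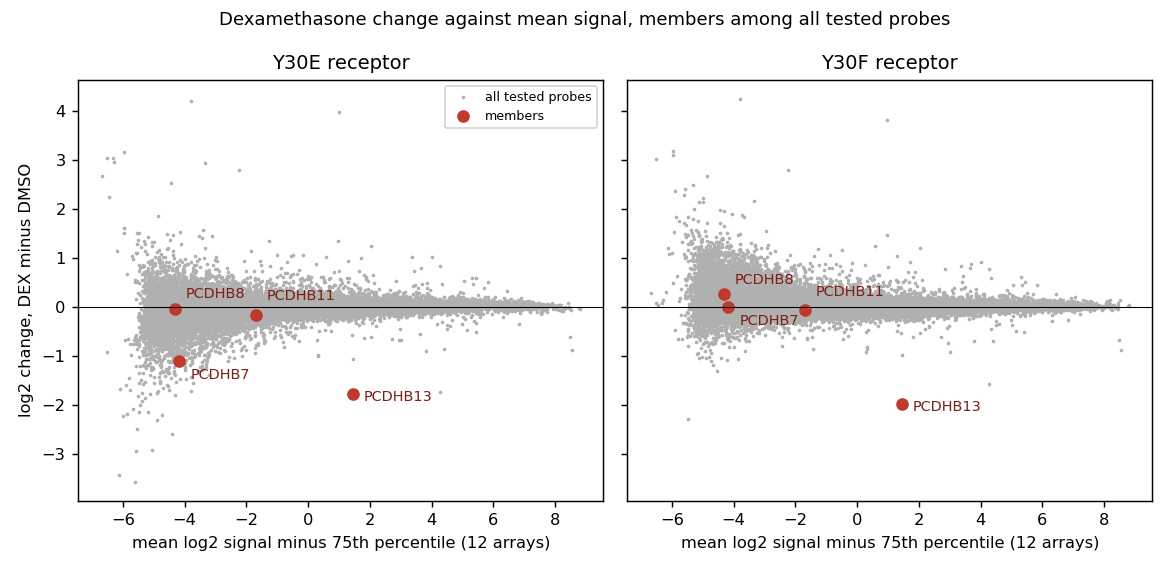
Log2 change with dexamethasone against mean signal for all 25570 tested probes (grey) and the 4 members (red), with the Y30E receptor on the left and the Y30F receptor on the right. PCDHB13 lies at -1.78 and -1.97, lower than any other probe well above background on all 12 arrays, while PCDHB7, at -1.10 in Y30E, lies at the left where changes of faint probes spread widely.

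The arrays lay on 3 slides, with all Y30E-DEX arrays and Y30E-DMSO replicate 3 on slide 3, all Y30F-DMSO arrays and Y30F-DEX replicate 1 on slide 1, and the other 4 arrays on slide 2. For PCDHB13 the within-slide differences were close to the pooled ones. It was -1.75 (log2) on slide 3 for Y30E, with a single DMSO array, and -2.18 on slide 1 for Y30F, with a single DEX array. On slide 2, the difference of 2 Y30F-DEX arrays minus 2 Y30E-DMSO arrays, which holds treatment and receptor together, was -1.91. With slide as a block the 95% intervals were -2.22 to -1.28 in Y30E and -2.65 to -1.72 in Y30F. For PCDHB11 the within-slide differences were -0.013 on slide 3 for Y30E and 0.040 on slide 1 for Y30F. On slide 2 the PCDHB11 difference of Y30F-DEX minus Y30E-DMSO, which again holds treatment and receptor together, was -0.47.

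The receptor mutants were then compared, a contrast that the rule for the set does not name. It uses the same arrays, and whether the choice of PCDHB13 favoured like changes with both receptors was not tested. The dexamethasone effect on PCDHB13 differed between receptors (Y30E effect minus Y30F effect) by 0.20 ± 0.21 (log2, SE), with a 95% interval of -0.27 to 0.66 (limma adjusted p = 0.818). This interval, from the fit without slide as a block, leaves room for a difference of up to 1.58-fold. The largest difference in size among the 4 members was that of PCDHB7, -1.09 ± 0.37 (95% interval -1.92 to -0.27), and it did not pass either (limma adjusted p = 0.352). It passed without Y30F-DEX replicate 1, where it was -1.35 (limma adjusted p = 0.0465) and 1262 of all probes passed as well, against 0 with all 12 arrays. Without that array all Y30F-DEX arrays lie on slide 2 and all Y30F-DMSO arrays on slide 1. Treatment and slide cannot then be told apart in Y30F, so no receptor difference is read from these calls. With slide as a block the difference for PCDHB13 was 0.43, with a wider 95% interval of -0.23 to 1.09. That interval leaves room for a larger difference than the fit without the block. For PCDHB8 and PCDHB11 the differences were -0.29 ± 0.24 and -0.093 ± 0.23 (limma adjusted p = 0.730 and 0.934). None of the 4 passed, and 0% of all probes did. Before adjustment, 1 of the 4 (PCDHB7) and 2777 of 25570 had a limma p under 0.05.

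Without hormone the PCDHB13 level was 4147 ± 225 in Y30E-DMSO and 4376 ± 546 in Y30F-DMSO (signal, SD, n = 3). After scaling between arrays the difference, Y30E minus Y30F, was 0.021 ± 0.15 (log2, SE, 95% interval -0.31 to 0.35, limma adjusted p = 0.973). PCDHB8, PCDHB11 and PCDHB7 differed by 0.43 ± 0.17, 0.28 ± 0.16 and 0.48 ± 0.26 under DMSO, and none passed (limma adjusted p = 0.316, 0.484 and 0.475). With slide as a block these differences were 0.0093, 0.51 and -0.53, and that of PCDHB13 was -0.28. Under DMSO 0.00782% of all probes passed. Before adjustment, 1 of the 4 (PCDHB8) and 3342 of 25570 had a limma p under 0.05.

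Under dexamethasone the PCDHB13 level was 1224 ± 73.8 in Y30E-DEX and 1081 ± 160.3 in Y30F-DEX (signal, SD, n = 3). The difference, Y30E minus Y30F, was 0.22 ± 0.15 (log2, SE, 95% interval -0.11 to 0.55, limma adjusted p = 0.558). PCDHB7, PCDHB8 and PCDHB11 differed by -0.62 ± 0.26, 0.14 ± 0.17 and 0.19 ± 0.16, and none passed (limma adjusted p = 0.352, 0.753 and 0.642). With slide as a block they were -1.59, 0.17 and 0.46, and none passed (limma adjusted p = 0.202, 0.993 and 0.993). Among all probes 0% passed. Before adjustment, 1 of the 4 (PCDHB7) and 3460 of 25570 had a limma p under 0.05. No slide held both DMSO groups or both DEX groups, so slide and receptor overlap in these contrasts.

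The transcripts whose normalised signal followed PCDHB13 most closely over the 12 arrays were given by record ID, since the scanner files hold no gene names. The search covered 23535 of the 23581 other probes well above background on all arrays, without 2 other members and 44 probes that lacked a value on some array after outlier spots were left out. The highest Pearson correlation was that of NM_001317 (probe A_24_P211044, r = 0.99, n = 12), and the next was NM_172006 (probe A_32_P951, r = 0.99, n = 12). The arrays share the split by treatment, which enters r, and no p is given. NM_172006 had a mean signal of 1532 ± 172 in Y30E-DEX and 3157 ± 176 in Y30E-DMSO, and of 1585 ± 185 in Y30F-DEX and 3213 ± 338 in Y30F-DMSO (SD, n = 3). Its log2 changes were -1.07 and -0.97, and those of NM_001317 were -0.62 and -0.68 (Y30E and Y30F). The mean signal of A_24_P211044 was 235991 in Y30E-DEX and 356961 in Y30E-DMSO, and 227610 in Y30F-DEX and 376379 in Y30F-DMSO. The 75th percentile of the arrays was 706 to 876, and the origin of so bright a signal was not tested. The 3rd closest was another probe of NM_001317 (A_23_P207170, r = 0.98), with changes of -0.88 in both receptors. All were smaller in size than the changes of PCDHB13.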

How the data were processed

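Total RNA of 12 samples was hybridised to 1-colour human whole-genome arrays. The deposited spot intensity is a processed green value, background-subtracted within each array by Agilent Feature Extraction (version 12, per the submitters' processing notes) and not normalised between arrays, per the file headers. The deposited series table held the same intensity values (0 differed).

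Groups came from the titles. Another label lists only CCRP for Y30F samples and only the receptor for Y30E samples, and the descriptions, which list both, were followed. The 75th percentile of each array (706 to 876 signal units) was subtracted on the log2 scale. Outlier spots were left out (89 to 154 per array), and 60.5% to 67.0% of non-control spots were well above background. A probe was tested if, on every array of 1 or more groups, a share of 0.5 or more of its spots was well above background. Every probe was kept apart, because the members are defined as probes. The test was limma 3.58.1 (lmFit, eBayes, R 4.3.3) on 4 group means (residual degrees of freedom 8), adjusted by Benjamini-Hochberg over 25570 probes, with a threshold of 0.05. The number of arrays limits the precision (median SE 0.082 on the log2 scale for either dexamethasone effect). The fit was tested on simulated data.

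The members and lists were chosen with earlier results of these data known. All 10 members are named, with the 3 closest probes by correlation. The planned lists of related genes and of cell type markers were not analysed here, because the scanner files give record IDs without names, so the labelled cell type was not checked. The rule for closest transcripts asked for 5 named genes and was applied to record IDs.

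Alternatives were quantile normalisation, median centring, normexp (offset 50, statmod 1.5.0, on median signals in place of the planned mean signals), the series table, other filters, 1 probe per record, slide as a fixed or random block, single slides, a replicate block, a fit of the compared groups only, another prior, and each array left out. Leaving out slide 2 was added after the data were seen. Same-numbered DEX and DMSO samples did not deviate together (correlations of -0.038 to 0.032 in 6 pairs).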

Additional observations from a re-analysis of the deposited data

How the results depend on the processing

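PCDHB13 kept a change below 0 with dexamethasone in every alternative run, from -1.84 to -1.71 in Y30E and from -2.18 to -1.87 in Y30F. The count of members past the threshold was 1 in each dexamethasone comparison, a contrast that chose the set, so these counts describe the settings alone. In Y30E it became 2, with PCDHB7, under normexp, slide as a fixed block and the trended, robust prior, and was 1 to 2 with an array left out (2 without Y30F-DEX replicate 1, through the shared spread). For the average it became 2 with slide as a fixed block, and was 1 with each array left out. In Y30F it became 0 on slide 1 alone, a test with a single DEX array, and was 1 with each array left out. For the difference of the effects the count was 0, and 0 to 1 with an array left out. Under each treatment the receptor mutants gave 0, also with each array left out. The replicate block, with numbers that pair no samples, gave 1, 1, 1, 0, 0 and 0 members in the 6 comparisons and changed no call. Some differences turned sign in some settings, none past the threshold. The cause of these changes was not tested. For PCDHB13 under DMSO these were -0.16 with median centring, -0.28 with the slide block, -0.0078 without slide 2, and -0.088 to 0.13 with an array left out. For PCDHB8 the difference of the effects was 0.018 with quantile normalisation and 0.16 with the slide block or without slide 2, and under dexamethasone the receptors differed by -0.021 to 0.26 with an array left out. For PCDHB11 the difference of the effects was 0.088 with median centring and -0.25 to 0.061 with an array left out. For PCDHB7 under DMSO it was -0.53 with the slide block. Median centring moved the median change over all probes tested by -0.13 in Y30F, by 0.18 for the difference of the effects and by -0.18 for the receptors under DMSO. Over all probes, calls in Y30E were 506 and ranged over 59 to 667, those in Y30F were 421 and ranged over 7 to 1488, and those for the average were 913 and ranged over 246 to 1005. For the difference of the effects they were 0 and reached 1262 without Y30F-DEX replicate 1, where treatment and slide coincide in Y30F. Under DMSO they were 2 and reached 1447 with median centring, and under dexamethasone they were 0 and reached 73. Low signal over background limits PCDHB7 and PCDHB8, and 8 of 12 probes did not pass the filter on low signal. Without that filter 0 of those 8 passed in each of the 6 comparisons (limma), and 0 or 1 had a p under 0.05 before adjustment. The shares of all probes in that fit are not given here, so nothing is read from these counts.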

Other observations

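A probe each of PCDHB9 and PCDHB15 that did not pass the filter on low signal was well above background only on slide 2. This held on 3 arrays for PCDHB9 and on 1 for PCDHB15. The brighter PCDHB9 probe (A_24_P380284) had signals of 26.1 and 47.6 on Y30F-DEX replicates 2 and 3 and 35.2 and 14.9 on Y30E-DMSO replicates 1 and 2, all on slide 2. On the arrays of slide 1 it had 5.98 to 18.1 and on those of slide 3 it had 4.25 to 6.52, and the other PCDHB9 probe stayed at 3.62 to 5.50 throughout. The PCDHB15 probe (A_23_P121851) had 52.1 on Y30E-DMSO replicate 1, also on slide 2, and 3.66 to 6.08 on the other 11 arrays. In the fit without the filter on low signal, the dexamethasone change of A_24_P380284 was -1.38 ± 0.86 in Y30E and 1.29 ± 0.86 in Y30F, and that of A_23_P121851 was -0.96 ± 0.80 in Y30E and 0.082 ± 0.80 in Y30F (log2, SE). The effects differed between receptors by -2.67 ± 1.22 for the PCDHB9 probe and by -1.04 ± 1.14 for the PCDHB15 probe, which did not pass for either probe (limma adjusted p = 0.566 and 0.893). The part of slide in these values was not tested.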
